A study of Mus musculus with 6 samples.

Results

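The glucocorticoid receptor and genes that respond to it were examined in RNA of mCherry-positive cells, labelled as CD51 astrocytes and sorted from mouse cortex. The markers showed mixed content, since the 12 oligodendrocyte markers took a larger share of reads than the 12 astrocyte markers in all 6 libraries. The members were 10 genes, taken by symbol from the 24421 genes of the deposited table: Nr3c1, Fkbp5, Sgk1, Tsc22d3, Zbtb16, Klf9, Errfi1, Hif3a, Mt1 and Mt2. The CNO group held 3 libraries from animals given clozapine-N-oxide, and the saline group held 3 from animals given saline. Both groups were CD51-Flp mice that carried AAV-GFAP-FSF-hM3D-mCherry, in which the GFAP promoter drives hM3D, a designer receptor that signals through Gq when bound by CNO, once Flp has acted. CD51 is integrin alpha V. Injections ran 2 times per day from postnatal day 7 to day 21, and mCherry-positive cells were sorted from cortex on day 21. There was no CNO group without hM3D, so any action of CNO on other targets cannot be told apart from that of Gq signalling. Strain background, sex and the number of animals per library were not stated in the sources used here. The p-values therefore measure the spread between these libraries, which may be technical. Because both groups were injected on the same schedule, the comparison addresses CNO against saline and not the effect of injection itself.

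The glucocorticoid receptor is a transcription factor that waits in the cytoplasm bound to Hsp90 chaperones. Corticosterone, the main glucocorticoid of mice, releases it to the nucleus, where it binds response elements and raises the transcription of target genes. Several targets feed back on the pathway, such as Fkbp5, whose product lowers the affinity of the receptor for hormone. Astrocytes express the receptor and respond to stress hormones with a well-known set of transcripts, to which the genes above belong.

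Values are normalized counts, which are read counts divided by 1 size factor per library by the authors. Recovered totals were 3908076 reads in CNO 1, and between 12010901 and 19224186 for the remaining 5. In CNO 1 each read stood for 4.23 normalized counts, against 0.503 to 0.970 elsewhere. Among the 6397 genes with a mean of 100 to 1000, 28.7%, 3.35% and 12.4% had under 3 reads in CNO 1, 2 and 3, against 0.766% to 1.11% in the saline libraries. All 12 astrocyte markers had reads in every library and took 1.02% to 3.48% of reads in CNO and 1.95% to 2.92% in saline. The 12 oligodendrocyte markers took 11.1% to 24.5% in CNO and 5.33% to 7.87% in saline, and the 10 microglia and macrophage markers 0.569% to 1.25% and 1.08% to 1.35%. Neuron, endothelial, mural, fibroblast and oligodendrocyte precursor lists took at most 0.0375% of reads each in any library. In such sorted bulk samples, fewer cells of a type and less RNA per cell cannot be told apart. Xist was high in CNO 2 (21466), CNO 3 (35033) and saline 4 (35117) and low in CNO 1 (25.4), saline 3 (216) and saline 5 (885), so libraries of both groups differed in sex-linked transcripts. Y-linked Ddx3y had 2417, 6.66 and 1.94 in CNO 1, 2 and 3, against 1452, 213 and 1955 in saline 3, 4 and 5. Kdm5d, also Y-linked, had 4.23, 6.66 and 0.970 in CNO, against 336, 178 and 423 in saline. CNO 1 was thus high in Ddx3y but not in Kdm5d. In saline 4 the Y-linked Ddx3y and Kdm5d (178) were thus present beside a high level of Xist, and whether that library pools animals is not stated in the sources used here.

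The receptor transcript was the member whose groups separated, while its responsive genes overlapped between groups. That is 1 of 10 members, a share no larger than the 17.1% of all tested genes whose groups did not overlap in either direction. Nr3c1 was higher in all 3 CNO libraries than in any saline library, without passing the test. None of the 10 members passed limma's moderated test at an adjusted p of 0.05 over all 13028 tested genes, where 0.0154% of genes passed. At an unadjusted p under 0.05, 1 member was higher and 0 were lower, against 2.28% and 7.25% of all tested genes, or 9.53% in either direction. edgeR, DESeq2 and limma-voom on recovered reads each called 0 members. Each had 1 member at an unadjusted p under 0.05, a level whose share over all genes was counted for limma only (9.53%). The background of adjusted calls was 0% in edgeR, 1.91% in DESeq2 and 0.123% in limma-voom. All 10 members passed the filter on low values, a mean of at least 10. Log2 fold changes were above 0 for 4 members and below 0 for 6, with a median of -0.80, beside -0.89 over all tested genes, of which 31.7% lay above 0. The latter include genes with means of 10 to 100 (median -2.28), a class without members. Fkbp5, Tsc22d3, Zbtb16, Errfi1 and Hif3a had means of 100 to 1000, a class with a median of -0.83 and 30.2% above 0. The rest had means of 1000 to 10000, a class with a median of 0.33 and 67.5% above 0. Without Nr3c1 the median of the other 9 members was -0.90.

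**Figure D1:**
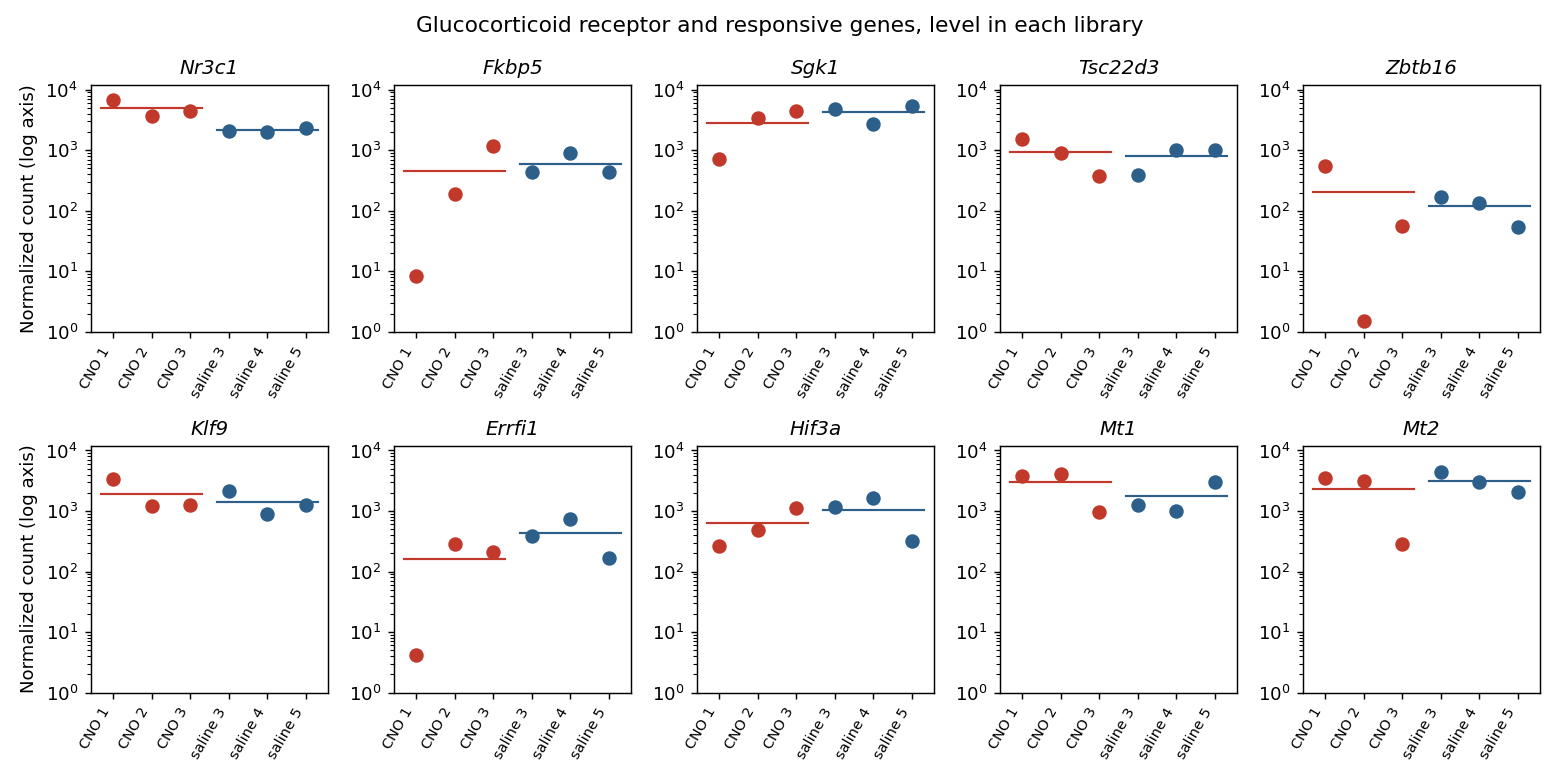
Normalized count (log axis) of each of the 10 genes in CNO libraries 1 to 3 (red) and saline libraries 3 to 5 (blue), with horizontal lines at group means. Nr3c1 is the panel in which all CNO points (3732 to 6816) lie above all saline points (2014 to 2317), and Fkbp5, Errfi1 and Zbtb16 each have 1 CNO library far below the rest.

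Nr3c1 encodes the glucocorticoid receptor and lies on chromosome 18 at 39410545 to 39519421 (GRCm38, minus strand, protein-coding). It had 6816, 3732 and 4446 normalized counts in CNO 1, 2 and 3, against 2046, 2014 and 2317 in saline 3, 4 and 5. The saline libraries were close together, with 1.15-fold between the highest and the lowest, and the CNO libraries spanned 1.83-fold. The group means were 4998 ± 1615 in CNO and 2126 ± 167 in saline (SD, n = 3 each), a ratio of 2.35. The log2 fold change was 1.19 ± 0.44 (SE, limma adjusted p = 0.488), with a 95% confidence interval of 0.22 to 2.16 before adjustment for the number of genes. Of all tested genes, 4.57% were higher in CNO without overlap. Among the 2132 genes with a mean of 1000 to 10000, the class of Nr3c1, 15.3% were, with a median log2 fold change of 0.33. The oligodendrocyte share of reads was higher in every CNO library as well, and its part in the Nr3c1 values was not tested. With quantile scaling the fold change was 0.52 on the log2 scale, where the median of all genes was -0.08.

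A search over 8297 named genes with a mean of at least 100 gave the 4 whose log2 values followed Nr3c1 most closely across the 6 libraries, each centred on its own mean. Igf1, an insulin-like growth factor, differed from Nr3c1 by a root mean square of 0.12 log2 units. It had 7243, 4516 and 4307 normalized counts in CNO, against 1963, 1983 and 2560 in saline. Sepp1, the secreted selenoprotein P, followed at 0.14 log2 units, Nacc2 at 0.17 and Sema6d, a semaphorin, at 0.18. None of the 4 passed in limma, with adjusted p from 0.488 to 0.496. As the closest of 8297 genes over 6 values, they were close by selection, and a link to Nr3c1 was not tested.

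Fkbp5 encodes a co-chaperone of the receptor complex and lies on chromosome 17 at 28399094 to 28517527 (GRCm38, minus strand). It had 8.45, 186 and 1187 normalized counts in CNO 1, 2 and 3, against 431, 900 and 445 in saline 3, 4 and 5. CNO 3 held the highest value of all 6 libraries and CNO 1 the lowest, so the CNO libraries enclosed the saline range and spanned 140-fold, against 2.09-fold in saline. The value of CNO 1 rested on 2 reads. The counting interval of those 2 reads, 1.02 to 30.5 normalized counts (exact Poisson, 95%), lay below the lowest saline library, and the ratio to the saline mean was 0.0143 (0.00173 to 0.0516). The group means were 461 ± 636 in CNO and 592 ± 267 in saline. The log2 fold change was -2.12 ± 1.54 (limma adjusted p = 0.644), which was -0.24 without CNO 1 and -3.73 without CNO 3.

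Sgk1 encodes a kinase that glucocorticoids and serum induce and that acts on ion channels and transporters. It lies on chromosome 10 at 21882184 to 21999903 (GRCm38, plus strand). RefSeq's promoter windows on GRCm38.p6, from 250 bases before to 50 bases after each annotated start, covered 8 of the 10 members with 16 windows, and 6 of these belong to Sgk1. The full palindromic response element, searched as the 6 letters AGAACA, any 3 bases and the reverse complement TGTTCT, which reads the same on both strands, was in 1 of the 16 windows and in 3 of the 32851 windows of all genes (0.00913%). The elements searched here were chosen after the members' windows had been read. The window that holds the full element is shown because Sgk1 was the member with this match, at chr10:21993640-21993939 on the plus strand. The capitals mark the element, which starts 189 bases before that start site.
Sgk1: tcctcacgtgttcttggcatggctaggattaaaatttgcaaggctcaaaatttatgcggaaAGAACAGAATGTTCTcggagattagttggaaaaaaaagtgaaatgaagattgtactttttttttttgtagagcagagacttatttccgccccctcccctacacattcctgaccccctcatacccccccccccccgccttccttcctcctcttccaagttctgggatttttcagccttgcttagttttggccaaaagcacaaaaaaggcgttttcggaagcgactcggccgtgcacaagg
The shorter core, ACA and TGT with any 3 bases between them, lies inside the full element. It was in 3 of the members' windows, 2 of Sgk1 and 1 of Mt1, and in 6.85% of all windows. The 6 letters AGAACA alone, on either strand, were in 4 of the 16 and in 19.0% of all windows. The cAMP response element, TGACGTCA, which reads the same on both strands, was in 1 of the 16 windows, that of Errfi1, and in 1.79% of all windows. A match describes letters in a window and says nothing of binding.

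Sgk1 had 718, 3397 and 4433 normalized counts in CNO 1, 2 and 3, against 4772, 2678 and 5481 in saline 3, 4 and 5. CNO 1 was far below the other 5 libraries, and CNO 2 and 3 lay within the saline range. The group means were 2849 ± 1917 in CNO and 4310 ± 1457 in saline, and the log2 fold change was -0.90 ± 0.67 (limma adjusted p = 0.649). Without CNO 1 it was -0.09.

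Tsc22d3 encodes the glucocorticoid-induced leucine zipper, an anti-inflammatory mediator, and lies on chromosome X at 140539528 to 140600659 (GRCm38, minus strand). It had 1538, 905 and 372 normalized counts in CNO 1, 2 and 3, against 387, 1010 and 997 in saline 3, 4 and 5. The groups overlapped, and the lowest library of each, CNO 3 and saline 3, stood close together. The means were 938 ± 584 in CNO and 798 ± 356 in saline, with a log2 fold change of 0.14 ± 0.78 (limma adjusted p = 0.959), which was -0.33 without CNO 1 and -0.32 without saline 3. The 95% confidence interval, -1.58 to 1.85, leaves room for sizeable differences in either direction. The libraries with high Xist were CNO 2 and 3 and saline 4, and these held 905, 372 and 1010 of this X-linked transcript.

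Errfi1 encodes a feedback inhibitor of ErbB receptors, and lies on chromosome 4 at 150853919 to 150868892 (GRCm38, plus strand). It had 4.23, 280 and 208 normalized counts in CNO 1, 2 and 3, against 388, 739 and 165 in saline 3, 4 and 5. CNO 2 and 3 lay inside the saline range, and CNO 1 held a single read, with a counting interval of 0.107 to 23.5 normalized counts. The group means were 164 ± 143 in CNO and 431 ± 289 in saline. The log2 fold change of -2.43 ± 1.63 (limma adjusted p = 0.621) was the lowest of the 10 members, and it was -0.58 without CNO 1.

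Of the transcriptional regulators among the responsive genes, Klf9 encodes a zinc finger factor that glucocorticoids and thyroid hormone induce. It lies on chromosome 19 at 23141226 to 23168134 (GRCm38, plus strand). Klf9 had 3393, 1192 and 1241 normalized counts in CNO 1, 2 and 3, against 2111, 908 and 1280 in saline 3, 4 and 5. CNO 1 was the highest of the 6 libraries, and CNO 2 and 3 lay inside the saline range. The means were 1942 ± 1257 in CNO and 1433 ± 615 in saline, and the log2 fold change was 0.34 ± 0.63 (limma adjusted p = 0.841), or -0.15 without CNO 1.

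Zbtb16 encodes a zinc finger factor that glucocorticoids induce strongly in many tissues, and lies on chromosome 9 at 48654297 to 48836222 (GRCm38, minus strand). It had 558, 1.48 and 56.3 normalized counts in CNO 1, 2 and 3, against 167, 134 and 53.9 in saline 3, 4 and 5. The CNO libraries spanned 377-fold and the saline libraries 3.11-fold, and the value of CNO 2 rested on 2 reads (interval 0.179 to 5.35 normalized counts). The mean was higher in CNO, 205 ± 307 against 119 ± 58.4 in saline, while the log2 fold change was -1.33 ± 2.07 (limma adjusted p = 0.809). The scales thus gave opposite directions, and the fold change was 0.73 without CNO 2 and -3.18 without CNO 1.

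Hif3a encodes a hypoxia-inducible factor subunit that can oppose the other alpha subunits, and lies on chromosome 7 at 17031507 to 17062427 (GRCm38, minus strand). It had 266, 485 and 1118 normalized counts in CNO 1, 2 and 3, against 1173, 1668 and 316 in saline 3, 4 and 5. The groups overlapped, and this was the 1 member whose log2 values were more widely spread in saline (SD 1.26) than in CNO (SD 1.04). Means were 623 ± 442 in CNO and 1052 ± 684 in saline, and the log2 fold change was -0.70 ± 0.87 (limma adjusted p = 0.763), between -1.41 without saline 5 and -0.21 without CNO 1.

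Mt1 and Mt2 encode metallothioneins, small cysteine-rich proteins that bind zinc and copper. Both respond to glucocorticoids, and to metals through metal response elements. They are neighbours on chromosome 8, Mt2 at 94172664 to 94173568 and Mt1 at 94179082 to 94180327 (GRCm38, plus strand). The metal response element core was searched as TGCACNC or TGCGCNC on both strands. The Mt1 window held 3 matches and the Mt2 window 4, where 25.7% of all 32851 windows held at least 1 and 1.97% at least 3. The windows are shown because these are the members with the most matches, at chr8:94178839-94179138 for Mt1 and chr8:94172368-94172667 for Mt2, both on the plus strand of GRCm38.p6. The capitals mark the matches, read on either strand.
Mt1: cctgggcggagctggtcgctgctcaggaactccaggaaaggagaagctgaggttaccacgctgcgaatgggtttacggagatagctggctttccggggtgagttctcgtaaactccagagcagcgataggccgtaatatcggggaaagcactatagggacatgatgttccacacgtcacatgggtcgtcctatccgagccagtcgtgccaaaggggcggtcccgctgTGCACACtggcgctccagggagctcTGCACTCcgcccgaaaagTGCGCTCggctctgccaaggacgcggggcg
Mt2: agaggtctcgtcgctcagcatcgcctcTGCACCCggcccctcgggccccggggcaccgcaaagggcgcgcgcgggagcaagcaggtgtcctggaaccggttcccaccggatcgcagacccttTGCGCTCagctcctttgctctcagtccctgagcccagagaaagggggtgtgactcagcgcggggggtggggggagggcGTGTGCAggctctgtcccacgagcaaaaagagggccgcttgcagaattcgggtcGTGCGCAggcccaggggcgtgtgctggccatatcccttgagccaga
The full glucocorticoid element was in neither window.

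Mt1 had 3854, 4135 and 965 normalized counts in CNO 1, 2 and 3, against 1241, 999.7 and 3036 in saline 3, 4 and 5. CNO 1 and 2 were above all saline libraries and CNO 3 below them. The means were 2985 ± 1755 in CNO and 1759 ± 1113 in saline, with a log2 fold change of 0.68 ± 0.69 (limma adjusted p = 0.717), between 0.31 without CNO 2 and 1.36 without CNO 3. Mt2 had 3508, 3134 and 290.1 normalized counts in CNO 1, 2 and 3, against 4385, 2990 and 2057 in saline 3, 4 and 5. For Mt2, CNO 1 and 2 lay inside the saline range and CNO 3 far below it. The means were 2311 ± 1760 in CNO and 3144 ± 1172 in saline, with a log2 fold change of -1.03 ± 0.86 (limma adjusted p = 0.669), which was 0.14 without CNO 3. An annotated antisense gene, Gm45774, overlaps an exon of Mt2, and reads of the pair cannot be told apart without strand.

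The ratio of Mt1 to Mt2 within a library does not depend on the size factor. It was 1.10, 1.32 and 3.33 in CNO 1, 2 and 3, against 0.283, 0.334 and 1.48 in saline 3, 4 and 5. With no correction for transcript length, Mt1 had more normalized counts than Mt2 in every CNO library, and in saline 5 among the saline libraries, so the groups overlapped. The mean log2 ratio was 0.76 ± 0.86 in CNO and -0.95 ± 1.31 in saline (exact permutation test, 2-sided, p = 0.3, where 3 against 3 cannot go below 0.1).

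**Figure D2:**
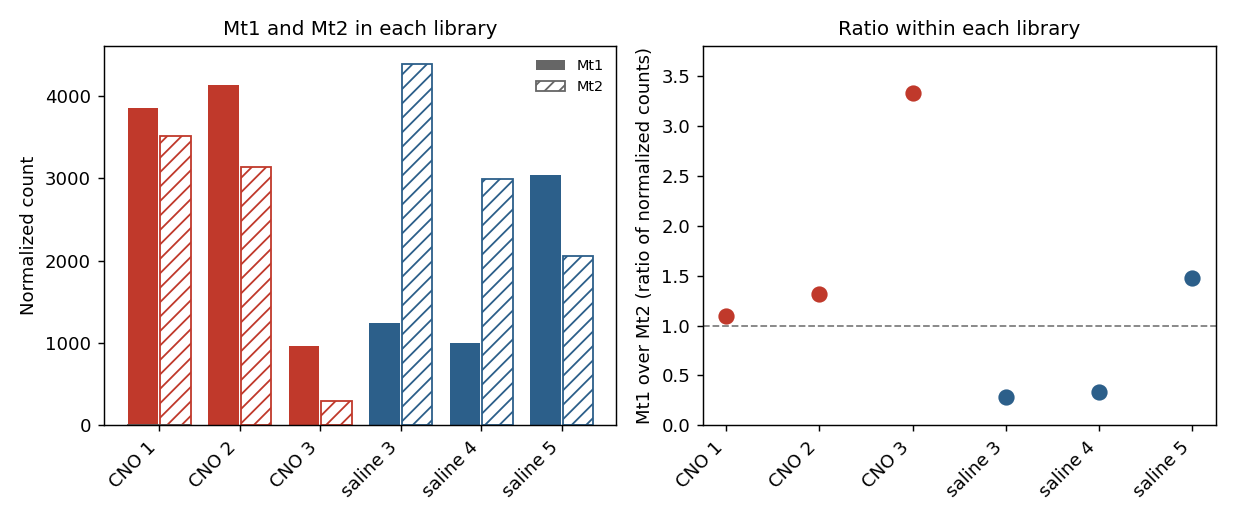
Left, normalized counts of Mt1 (filled bars) and Mt2 (hatched bars) in the CNO (red) and saline (blue) libraries. Right, the ratio of Mt1 to Mt2 in each library, which is above 1 (dashed line) in all 3 CNO libraries and in saline 5, and 0.283 and 0.334 in saline 3 and 4.

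The members were not high or low in the same CNO libraries. CNO 1 held the highest value of the 6 libraries for 4 members, Nr3c1, Tsc22d3, Zbtb16 and Klf9, and the lowest for another 4, Fkbp5, Sgk1, Errfi1 and Hif3a. CNO 3 held the highest value of Fkbp5 and the lowest of Tsc22d3, Mt1 and Mt2. Saline 3 and 5 held the lowest value of 0 members. The SD of log2 values was wider in CNO than in saline for 9 of the 10 members, which is close to the 80.6% of all tested genes for which this was so. Of the 10 members, 2 had under 3 reads in CNO 1 and 1 in CNO 2, and none in the other 4 libraries.

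**Figure D3:**
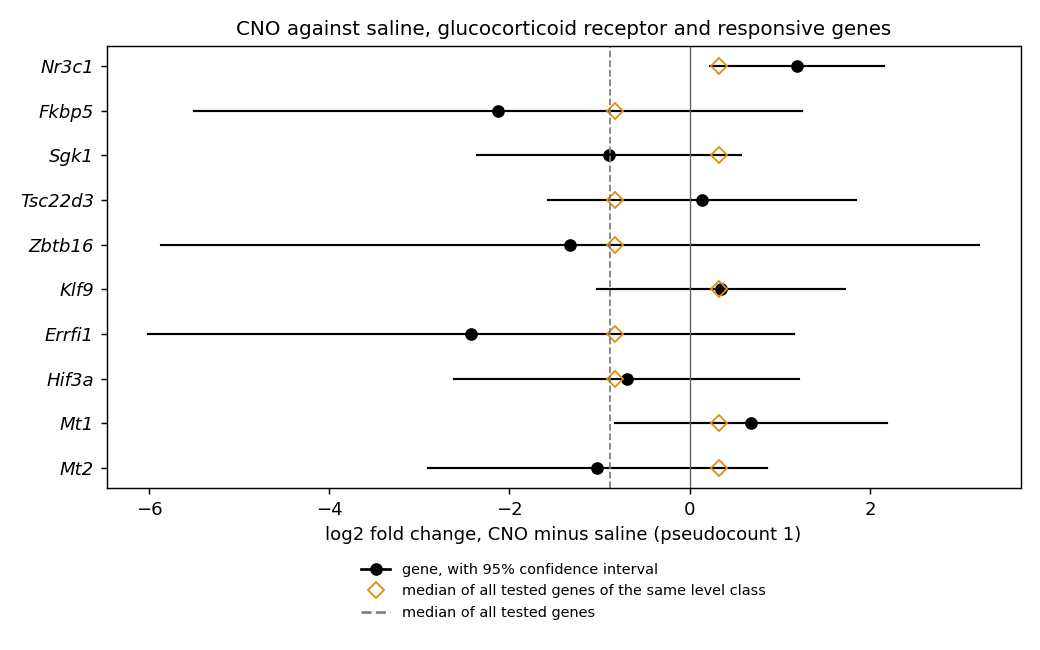
Log2 fold change of CNO minus saline for each gene (points, with 95% confidence intervals from limma before adjustment over genes), the median of all tested genes of the same level class (orange diamonds; means of 100 to 1000 or of 1000 to 10000) and the median of all tested genes (dashed line, -0.89). The interval of Nr3c1, 0.22 to 2.16, is the 1 that does not cross 0, and it includes the median of its class, 0.33.

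**Figure D4:**
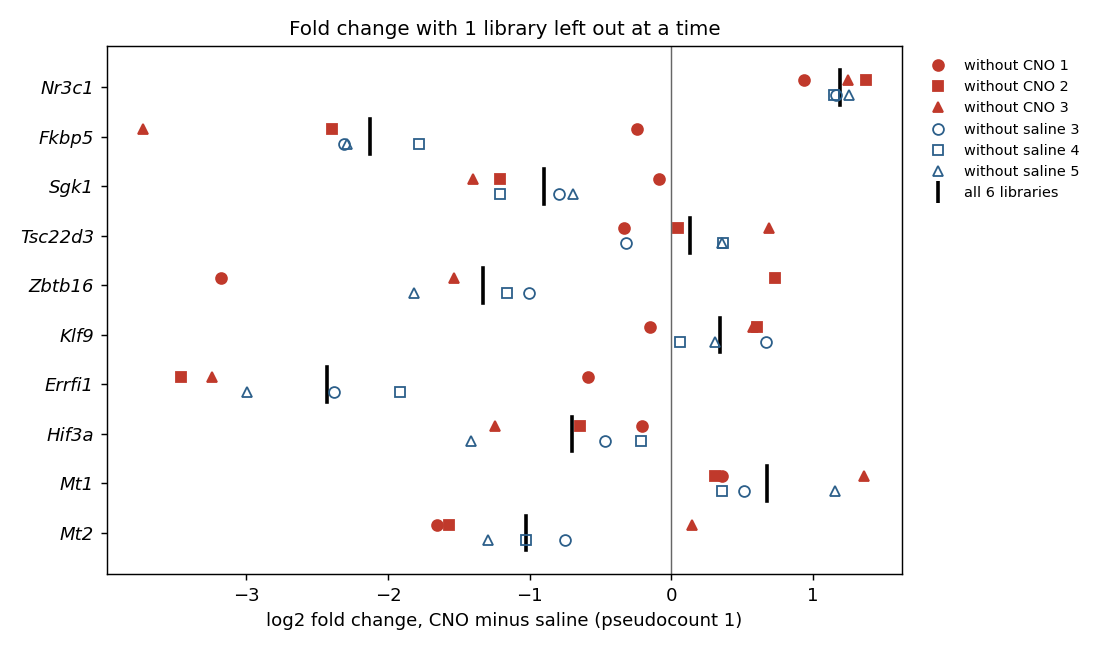
Log2 fold change of CNO minus saline for each gene with all 6 libraries (black bars) and with 1 library left out at a time (red, a CNO library; blue, a saline library). Nr3c1 stays between 0.94 and 1.38, while Fkbp5 runs from -3.73 without CNO 3 to -0.24 without CNO 1, and Tsc22d3, Zbtb16, Klf9 and Mt2 cross 0.

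Divided by the length of all annotated exons, the genes could be put in an order of levels, which depended in part on the length used. Mt2 had means of 3930 normalized counts per kilobase in CNO and 5347 in saline, and Mt1 had 2396 and 1412. The annotated exons of Mt1 together cover 1246 bases, its whole span, and those of Mt2 cover 588. Divided instead by the longest transcript tagged as principal, 549 bases for Mt1 and 511 for Mt2, an alternative chosen after seeing the data, Mt1 had 5437 in CNO and 3204 in saline, and Mt2 had 4522 and 6152. Mt2 was therefore above Mt1 in the saline mean with either length, while the order of their CNO means turned with the length used. Single libraries differed. With the principal length, saline 5 had Mt1 above Mt2 (5531 against 4025), unlike saline 3 and 4. With all exons, CNO 3 had Mt1 above Mt2 (775 against 493), unlike CNO 1 and 2. The part of the overlap with Gm45774 in the level of Mt2 was not tested. Nr3c1 had 650.5 per kilobase in CNO and 277 in saline, and Sgk1 had 581 and 879. Nr3c1 therefore had rank 3 of the 10 in CNO and rank 5 in saline, but Sgk1 was above Nr3c1 in CNO 2 and 3 and below it in CNO 1, so these neighbours did not differ beyond their spread in CNO. In saline, Sgk1 exceeded Nr3c1 in each library, at 546 to 1118 against 262 to 302 per kilobase. Klf9 had 403 in CNO, below the means of Nr3c1 and Sgk1, and 298 in saline, where its libraries (189 to 438) overlapped those of Nr3c1. Tsc22d3 had 216 in CNO and 184 in saline, below Klf9 in both means. With the principal length this order turned, at 475 for Tsc22d3 against 433 for Klf9 in CNO and 404 against 319 in saline. Nr3c1, Sgk1 and Hif3a had no principal length, so their places could not be compared in this way. With all exons, Hif3a, Fkbp5, Errfi1 and Zbtb16 had means of 38.8 to 92.9 per kilobase in CNO and 22.4 to 157 in saline. Their ranges over libraries overlapped in CNO. In saline those of Hif3a, Fkbp5 and Errfi1 overlapped, and Zbtb16 lay below them at 10.2 to 31.7.

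A list of 13 genes held chaperones of the receptor, co-chaperones and proteins that work with them. Of these genes, 8 had log2 fold changes above 0 and 5 below, with a median of 0.28. That median was -0.24 with quantile scaling and -0.15 without saline 3, and otherwise between 0.02 without CNO 3 and 0.49 without saline 5. None passed in limma. At an unadjusted p under 0.05, 3 were higher in limma, as were 2.28% of all tested genes. DESeq2 called Cdc37 and Stub1, where it called 1.91% of all tested genes, and edgeR called 0. Hsp90ab1, the constitutive Hsp90, had 16122, 15138 and 18351 normalized counts in CNO, against 6669, 8361 and 9591 in saline, without overlap (log2 fold change 1.02 ± 0.31, limma adjusted p = 0.488). In the class of Hsp90ab1, 107 genes whose mean reached 10000, 38.3% were higher in CNO without overlap, with a median log2 fold change of 0.60. Cdc37, which delivers kinases to Hsp90, had 862, 355 and 943 in CNO, against 43.1, 74.4 and 139 in saline (3.09 ± 1.07, limma adjusted p = 0.488, DESeq2 adjusted p = 0.0253). Stub1, a ubiquitin ligase that works with these chaperones, had 133, 3 and 788 reads in CNO 1, 2 and 3, against 0, 1 and 0 in saline. Neither Cdc37 nor Stub1 overlapped between groups, and 3.33% of genes in their class, means of 100 to 1000, were higher without overlap. For Stub1 the separation rested on 3 reads in CNO 2 against 1 read in saline 4, or 2.22 against 0.80 normalized counts. Ppid, another co-chaperone, averaged 90.1 ± 123 normalized counts in CNO and 289 ± 109 in saline, and did not pass (limma adjusted p = 0.582). The oligodendrocyte share of reads was also higher in every CNO library, and its part in these values was not tested.

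Of the 12 coregulators, 6 had log2 fold changes above 0 and 6 below (median 0.06, which was below 0 under 7 of the 18 alternatives and ran from -0.35 with quantile scaling to 0.32 without CNO 2). Leaving out CNO 1, CNO 3, saline 4 or saline 5 gave -0.01, -0.05, -0.03 and -0.04. Of these genes 0 passed in limma, with 3 at an unadjusted p under 0.05, and 0 passed in edgeR or DESeq2. Ncoa2, a coactivator that binds the receptor directly, had 6571, 3193 and 6451 normalized counts in CNO, against 2080, 1888 and 2251 in saline (log2 fold change 1.31 ± 0.46, limma adjusted p = 0.488). Ep300, a histone acetyltransferase, had 7188, 5340 and 5338 in CNO, against 3721, 3287 and 2220 in saline (0.97 ± 0.41). Both were higher in CNO without overlap, as were 15.3% of genes in their class, means of 1000 to 10000. Hdac2, a histone deacetylase, was lower in every CNO library, at 84.5, 108 and 0 against 584, 928 and 369 in saline (limma adjusted p = 0.491), where 12.5% of all tested genes and 10.0% of those with a mean of 100 to 1000 were lower without overlap. Ncoa3, another coactivator, had 4.23, 804 and 1644 in CNO, against 1120, 1479 and 1009 in saline, and overlapped.

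The mineralocorticoid receptor and the enzymes and pumps that set local steroid supply formed a list of 6, with 1 log2 fold change above 0, 5 below and a median of -2.47. The median stayed below 0 under all 18 alternatives, but was -0.49 with quantile scaling, -0.53 with only genes read in every library, -1.42 with a mean filter of 50, -1.62 with a pseudocount of 8, -1.37 in edgeR, -1.20 in DESeq2 and -1.56 without saline 4. Of the 6 genes, H6pd and Hsd11b2 are in the class with means of 10 to 100, whose median over all tested genes was -2.28. None passed in limma, with 1 at an unadjusted p under 0.05, and 0 passed in edgeR and DESeq2. Nr3c2, the mineralocorticoid receptor, which also binds corticosterone, had 0, 1 and 87 reads in CNO 1, 2 and 3, against 224, 536 and 342 in saline. Its groups did not overlap, and its log2 fold change of -5.32 ± 2.19 (limma adjusted p = 0.5002) lay opposite to that of Nr3c1. This gene was in the class with means of 100 to 1000, in which 10.0% of genes were lower in CNO without overlap. Hsd11b1, which regenerates corticosterone, had 769, 764 and 0.970 normalized counts in CNO 1, 2 and 3, against 544, 382 and 673 in saline. CNO 1 and 2 were above all saline libraries and CNO 3 held a single read. H6pd, which supplies the cofactor of that enzyme, had 25.4, 5.18 and 0 in CNO, against 43.1, 65.6 and 38.2 in saline, without overlap, where 21.3% of genes with a mean of 10 to 100 were lower without overlap. Hsd11b2, which inactivates corticosterone, had 295 reads in saline 4 and 0 in the other 5 libraries.

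A further 30 genes known to respond to glucocorticoids were split evenly by direction. Of the 28 tested, 14 had log2 fold changes above 0 and 14 below, and the median was -0.06. It was above 0 under 6 of the 18 alternatives, at most 0.24 in DESeq2, including 0.21 without CNO 3 and 0.02 without saline 5, and was lowest at -0.29 without saline 3. None passed in limma, with 1 at an unadjusted p under 0.05, and 0 passed in edgeR or DESeq2. Lcn2 and Anxa1 were under the filter. Plin4, a lipid droplet protein, had 0, 1 and 0 reads in CNO, against 263, 4 and 30 in saline, without overlap, in the class with means of 10 to 100 where 21.3% of genes were lower without overlap. Txnip, an inhibitor of thioredoxin named here after its values were seen, had 609, 1384 and 1441 normalized counts in CNO, against 1757, 1668 and 1773 in saline (log2 fold change -0.70 ± 0.58, limma adjusted p = 0.669). It did not overlap either, and 2.49% of genes with a mean of 1000 to 10000 were lower without overlap. Nedd9, a scaffold of adhesion signalling, had 1259, 152 and 447 normalized counts in CNO, against 273, 77.6 and 37.2 in saline (log2 fold change 2.24 ± 1.26, limma adjusted p = 0.577). Arrdc2, an arrestin-domain protein, averaged 14.3 ± 14.8 in CNO and 143 ± 135 in saline. Slc38a2, a neutral amino acid transporter, averaged 648 ± 719 in CNO and 1037 ± 257 in saline. Neither passed (limma adjusted p = 0.603 for Arrdc2 and 0.634 for Slc38a2).

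**Figure D5:**
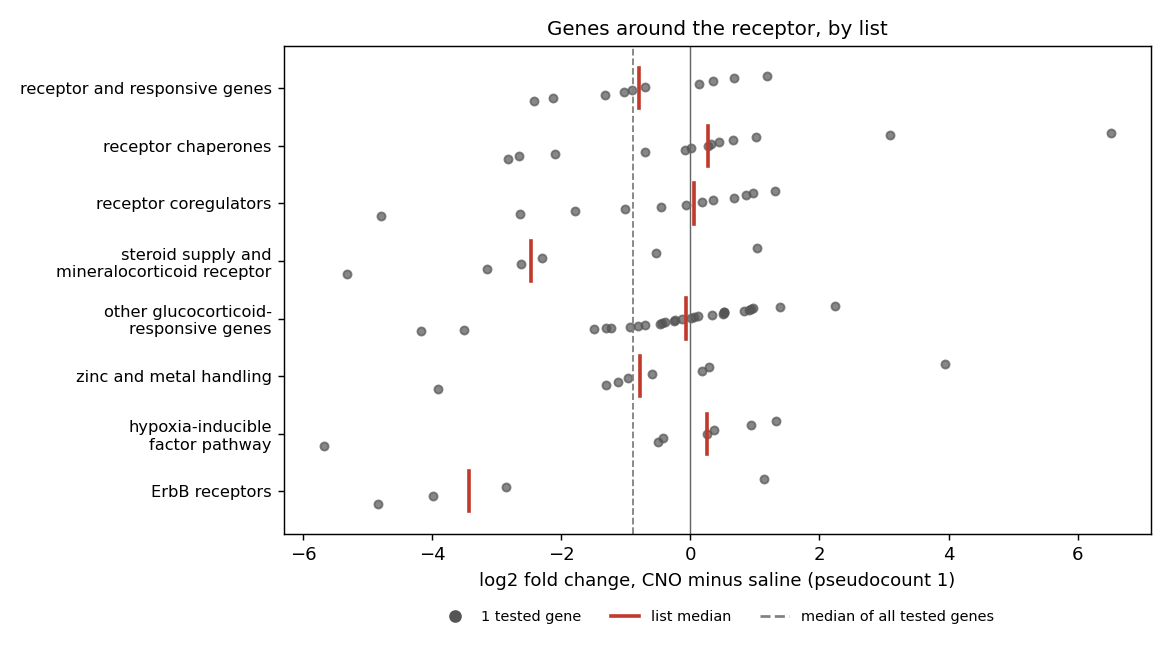
Log2 fold change of CNO minus saline for each tested gene (grey points) of the receptor and responsive genes and of 7 lists around them, with list medians (red) and the median of all tested genes (dashed line, -0.89). The list medians run from -3.43 for the 4 ErbB receptors to 0.28 for receptor chaperones. With only genes read in every library the ErbB list holds Egfr alone, at 1.14, and the chaperone median was -0.24 with quantile scaling.

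Metal handling genes beside Mt1 and Mt2 numbered 8, with 3 log2 fold changes above 0, 5 below and a median of -0.78. The median was 0.25 without CNO 1, 0.04 in edgeR and 0.15 in DESeq2, so its direction turned, and it was -0.36 without saline 3 and -0.20 with array weights. None passed in limma, with 0 at an unadjusted p under 0.05, and 0 passed in edgeR or DESeq2. Mt3, the metallothionein of the brain, had 12.7, 143 and 384 normalized counts in CNO, against 2.27, 0 and 62.9 in saline (log2 fold change 3.94 ± 2.31, limma adjusted p = 0.590). Unlike Mt1 and Mt2, it had its highest value in CNO 3. Slc39a14, a zinc importer, had 42.3, 8.14 and 0 in CNO, against 92.4, 64.8 and 217 in saline, without overlap, and 21.3% of genes with a mean of 10 to 100 were lower in CNO in that way. Slc39a12, another importer, averaged 1768 ± 1185 in CNO and 3002 ± 1972 in saline, and Slc30a1, a zinc exporter, 404 ± 450 and 368 ± 58.5.

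For Hif3a, 7 of 8 genes of the hypoxia-inducible factor pathway were tested, with 4 log2 fold changes above 0, 3 below and a median of 0.25. The median was -0.27 without CNO 3, -0.16 without saline 4 and -0.08 with no filter on low values, and 0.72 without CNO 1 and 0.45 without saline 5. It was 0.04 in edgeR, 0.06 after quantile scaling and 0.08 in limma-voom. None passed in limma, with 2 at an unadjusted p under 0.05, and 0 passed in edgeR or DESeq2. Epas1, another alpha subunit, had 6863, 7170 and 4707 normalized counts in CNO, against 3671, 3125 and 2822 in saline, without overlap (0.95 ± 0.40, limma adjusted p = 0.509), in the class where 15.3% of genes were higher without overlap. Egln2, a prolyl hydroxylase that marks alpha subunits for destruction, had 0, 12 and 0 reads in CNO, against 193, 149 and 198 in saline (-5.68 ± 1.97, limma adjusted p = 0.488), without overlap, in the class with means of 10 to 100 where 21.3% of genes were lower without overlap. Hif1an, an asparagine hydroxylase, averaged 222 ± 140 normalized counts in CNO and 191 ± 232 in saline, and Arnt, the shared partner subunit, 429 ± 317 and 572 ± 283.

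The ErbB receptors that the Errfi1 product restrains numbered 4, with 1 log2 fold change above 0, 3 below and a median of -3.43. The median was -0.86 when genes had to reach a mean of 50, -1.11 after quantile scaling and -2.06 with a pseudocount of 8. With only genes read in every library, which leaves Egfr alone, it was 1.14. None passed in limma, with 1 at an unadjusted p under 0.05, and 0 passed in edgeR or DESeq2. Egfr had 6267, 4143 and 2131 normalized counts in CNO, against 2679, 1823 and 1053 in saline (log2 fold change 1.14 ± 0.56, limma adjusted p = 0.550). Erbb2 had 0, 13 and 0 reads in CNO, against 208, 111 and 45 in saline, without overlap, and its class is also that with means of 10 to 100. Erbb3 had 0, 1 and 0 reads in CNO, against 160, 0 and 151 in saline, and Erbb4 0, 31 and 155 against 381, 78 and 199. Exons of Stub1, Ncoa3, Nr3c2, Plin4, Txnip, Nedd9, Slc30a1, Egln2 and Erbb2 overlap those of a gene on the opposite strand. Strand handling was not stated in the sources at hand, so reads of such pairs cannot be told apart.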

How the data were processed

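RNA of sorted cells from 3 CNO and 3 saline libraries was sequenced from 10 ng total RNA each, per the labels' protocols. Trimmomatic 0.4, FastQC 0.10.1, MultiQC 0.9, STAR 2.5.0a, DESeq2 1.20.0 and mm10 are named, per the submitters' processing notes. No source used here states the read counter, the annotation or whether strand was used. The deposited values are a signal, reads per gene divided by 1 size factor per library by the authors. Whole reads were recovered by dividing by the smallest step, and 100% of values in each library were whole within 1e-06 reads. Intervals on reads cover counting error only.

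Groups came from the labels. limma 3.58.1 (R 4.3.3) was fitted to log2 of the normalized count plus 1 for 13028 genes with a mean of at least 10, with a variance trend, 2-sided tests and Benjamini-Hochberg adjustment over all of them. Fold changes are differences of mean log2 values, which low libraries can dominate. Alternatives were 2 pseudocounts, 3 filters, scaling by quantiles or TMM, weights per library, no trend, limma-voom, edgeR 4.0.16 and DESeq2 1.42.0 on recovered reads, and each library left out. Named genes were the 10 members, up to 4 per list by smallest p, and the 4 most like Nr3c1. Members and lists were chosen with earlier results of these data known. Coordinates are GENCODE mouse release 21 (GRCm38, the assembly of mm10), and promoters RefSeq GRCm38.p6. Per kilobase means per union of annotated exons. No window was used for Nr3c1 or Zbtb16. Figures used matplotlib 3.10.9.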

Additional observations from a re-analysis of the deposited data

How the results depend on the processing

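No paired analysis was possible because the groups share only replicate number 3. None of the 10 genes passed under any of the 18 alternatives. Direction held in all 18 for Nr3c1 (0.52 to 1.38), Fkbp5, Sgk1, Errfi1, Hif3a and Mt1. It turned for Tsc22d3 with quantile scaling (-0.16), limma-voom (-0.17), without CNO replicate 1 (-0.33) and without saline replicate 3 (-0.32, range to 0.69), for Klf9 with quantile scaling (-0.18), limma-voom (-0.060) and without CNO replicate 1 (-0.15, range to 0.67), for Zbtb16 with quantile scaling (0.029), edgeR (0.55), DESeq2 (0.79) and without CNO replicate 2 (0.73, range from -3.18), and for Mt2 without CNO replicate 3 (0.14, range from -1.65); the cause was not tested. The median over the 10 genes was -0.54 with quantile scaling, -0.62 with array weights, -0.52 in limma-voom, -0.17 in edgeR, -0.062 in DESeq2 and -0.99 to -0.23 with 1 library left out. Over all genes, calls were 2, both higher in CNO, and 0 with a mean filter of 50, a read in every library, quantile scaling, no variance trend, edgeR and any library left out (0 to 0), 11 higher with array weights, 16 higher in limma-voom and 249 in DESeq2 (69 higher, 180 lower). The median log2 fold change of all genes was -0.09 with only genes read in all libraries, -0.08 with quantile scaling and 0.004 in DESeq2. CNO 1, with 3908076 reads in total, held 2 reads of Fkbp5 and 1 of Errfi1. CNO 2, with 19224186 in total, held 2 reads of Zbtb16. Values this low rest on few reads, and the part of library depth in them was not tested.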
